A study of Mus musculus with 12 samples.

Results

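Genes of the centrosome and the cilium were examined for places where meiotic recombination starts, in the testis of wild type mice and of mice without ANKRD31. The genes were all protein-coding RefSeq genes of GRCm38 whose symbol starts with Cep, Ift, Bbs, Tubg or Cfap followed by a digit, together with Tubgcp2 to Tubgcp6. There were 101 such genes among 21627 protein-coding genes: 38 Cep, 34 Cfap, 14 Ift, 8 Bbs, 5 Tubgcp and 2 Tubg genes. Only 1 of them, Cfap47, lies on the X chromosome.

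The assay was DMC1 single-stranded DNA sequencing (SSDS). DMC1 is the recombinase that coats the resected ends of a meiotic double-strand break, and each interval enriched for its DNA is called a hotspot. The series has 12 samples, of which the 4 DMC1 samples were used: whole testis of adult males, 2 of strain C57BL/6JCrl (B6, wild type) and 2 carrying the Ankrd31 tm1Atot allele, a knockout for which the labels give no further strain. Samples of both genotypes were processed with the same DMC1 antibody. For each genotype 1 hotspot list was deposited and read here as 1 sample, so nothing below could be set against a spread between mice, and no difference between the genotypes has a replicate check.

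The centrosome is a pair of centrioles in a protein matrix that nucleates microtubules, and in a ciliated cell the mother centriole becomes the basal body from which the cilium or the sperm flagellum grows. Cep genes encode proteins of the centriole and its matrix, Ift genes the subunits of the trains that carry cargo along the axoneme, Bbs genes a coat that moves membrane proteins in cilia, Tubg and Tubgcp genes gamma-tubulin and the ring that nucleates microtubules with it, and Cfap genes axonemal proteins of motile cilia and flagella. In mice most hotspots are placed by the histone methyltransferase PRDM9 away from promoters, whereas in mice that lack PRDM9 breaks occur largely at promoters. ANKRD31 belongs to the proteins that assemble the break-forming machinery on chromosome axes.

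The wild type list held 13480 hotspots and 4376692 reads, and the knockout list 22034 hotspots and 4203380 reads. Strength is the read count of a hotspot minus its estimated background, and its median was 152 for wild type and 105 for knockout hotspots. A gene end was said to have a hotspot where the midpoint of the hotspot was no more than 1 kb away from that end, inside or outside the gene. It counted as shared when it overlapped a hotspot of the other list by at least 1 bp, and as knockout-only or wild-type-only when it did not, which says only that the other list has none there. Intervals in parentheses are 95% intervals that cover counting error alone.

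The 6 promoters shown first are those with the strongest knockout hotspot at their start, and the 4 after them are the alphabetically first promoters of the Cep, Ift, Bbs and Cfap families with no hotspot there in either list. Each runs 5′ to 3′ along the gene from 250 bases before the RefSeq start to 50 bases from it on (GRCm38.p6, the coordinates of mm10), with CpG dinucleotides in capitals.
Cfap47, chrX:79517302-79517601, minus strand: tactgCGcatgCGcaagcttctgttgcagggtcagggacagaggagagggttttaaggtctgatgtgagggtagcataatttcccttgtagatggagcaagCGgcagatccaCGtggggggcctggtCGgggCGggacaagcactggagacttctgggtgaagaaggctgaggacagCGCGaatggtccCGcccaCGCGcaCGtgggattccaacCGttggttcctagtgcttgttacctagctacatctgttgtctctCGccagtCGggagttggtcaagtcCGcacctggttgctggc
Cep57, chr9:13827058-13827357, minus strand: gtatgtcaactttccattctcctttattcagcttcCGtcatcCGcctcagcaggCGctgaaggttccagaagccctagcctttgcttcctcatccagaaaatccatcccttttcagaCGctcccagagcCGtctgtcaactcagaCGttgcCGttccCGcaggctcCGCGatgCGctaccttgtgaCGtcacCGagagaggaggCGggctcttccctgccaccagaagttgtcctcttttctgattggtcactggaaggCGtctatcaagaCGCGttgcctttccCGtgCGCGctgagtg
Cep95, chr11:106789002-106789301, plus strand: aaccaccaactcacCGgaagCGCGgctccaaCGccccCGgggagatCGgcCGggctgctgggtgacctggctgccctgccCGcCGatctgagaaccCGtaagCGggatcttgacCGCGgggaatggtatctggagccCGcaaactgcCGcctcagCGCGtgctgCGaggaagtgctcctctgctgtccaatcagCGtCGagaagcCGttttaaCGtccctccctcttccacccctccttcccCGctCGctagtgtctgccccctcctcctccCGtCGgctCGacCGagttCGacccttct
Cep135, chr5:76588449-76588748, plus strand: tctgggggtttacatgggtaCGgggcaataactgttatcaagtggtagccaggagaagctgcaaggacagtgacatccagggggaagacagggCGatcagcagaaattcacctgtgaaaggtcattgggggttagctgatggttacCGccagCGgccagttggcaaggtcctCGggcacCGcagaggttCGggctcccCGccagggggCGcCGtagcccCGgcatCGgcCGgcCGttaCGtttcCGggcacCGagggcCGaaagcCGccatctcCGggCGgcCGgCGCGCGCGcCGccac
Bbs7, chr3:36613340-36613639, minus strand: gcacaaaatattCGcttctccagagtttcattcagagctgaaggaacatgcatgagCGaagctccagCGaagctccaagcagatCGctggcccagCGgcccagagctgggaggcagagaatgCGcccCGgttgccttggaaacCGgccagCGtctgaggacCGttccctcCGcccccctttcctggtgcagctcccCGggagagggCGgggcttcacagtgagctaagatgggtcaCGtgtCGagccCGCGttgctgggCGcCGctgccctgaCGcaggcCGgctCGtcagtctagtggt
Cep112, chr11:108425016-108425315, plus strand: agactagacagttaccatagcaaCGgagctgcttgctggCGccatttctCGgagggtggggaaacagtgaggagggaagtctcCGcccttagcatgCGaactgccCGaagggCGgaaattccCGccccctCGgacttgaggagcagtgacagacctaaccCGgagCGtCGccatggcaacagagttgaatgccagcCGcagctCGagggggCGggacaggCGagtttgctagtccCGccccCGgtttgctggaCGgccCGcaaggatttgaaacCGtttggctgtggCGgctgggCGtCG
Cep126, chr9:8134397-8134696, minus strand: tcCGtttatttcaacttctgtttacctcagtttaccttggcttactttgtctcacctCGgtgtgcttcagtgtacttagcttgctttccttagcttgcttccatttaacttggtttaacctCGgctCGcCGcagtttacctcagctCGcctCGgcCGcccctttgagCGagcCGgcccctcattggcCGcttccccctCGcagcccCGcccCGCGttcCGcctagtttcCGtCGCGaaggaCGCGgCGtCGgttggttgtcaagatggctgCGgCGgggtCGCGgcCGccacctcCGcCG
Ift140, chr17:25015836-25016135, plus strand: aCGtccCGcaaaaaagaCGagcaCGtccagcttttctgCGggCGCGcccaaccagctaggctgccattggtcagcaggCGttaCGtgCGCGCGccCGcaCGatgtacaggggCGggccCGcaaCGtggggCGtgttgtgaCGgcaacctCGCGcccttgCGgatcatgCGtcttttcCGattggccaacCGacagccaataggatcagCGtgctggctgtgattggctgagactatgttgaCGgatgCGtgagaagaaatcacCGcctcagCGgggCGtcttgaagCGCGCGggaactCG
Bbs1, chr19:4906578-4906877, minus strand: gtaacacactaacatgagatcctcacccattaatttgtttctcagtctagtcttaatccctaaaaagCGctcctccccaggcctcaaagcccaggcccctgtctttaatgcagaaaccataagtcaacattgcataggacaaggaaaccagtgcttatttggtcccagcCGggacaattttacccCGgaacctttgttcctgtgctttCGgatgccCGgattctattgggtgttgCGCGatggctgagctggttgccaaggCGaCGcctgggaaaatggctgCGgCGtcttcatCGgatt
Cfap100, chr6:90428431-90428730, minus strand: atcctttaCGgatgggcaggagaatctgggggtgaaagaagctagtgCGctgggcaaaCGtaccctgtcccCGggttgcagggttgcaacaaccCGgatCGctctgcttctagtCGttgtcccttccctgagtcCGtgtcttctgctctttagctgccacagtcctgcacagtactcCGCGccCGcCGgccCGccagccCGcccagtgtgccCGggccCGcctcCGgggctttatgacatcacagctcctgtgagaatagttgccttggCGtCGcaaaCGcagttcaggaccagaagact

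The first 6 hold 16 to 29 CpG dinucleotides. Those of Cfap47 and Cep57 hold 16 and 20, and those of Cep95 and Cep135 hold 29 and 27. The 4 without a hotspot hold 30 (Cep126), 35 (Ift140), 12 (Bbs1) and 20 (Cfap100), so single promoters of either kind overlapped in this respect.

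In the knockout, 47 of the 101 genes (46.5%, 36.5 to 56.7) had a hotspot at an end, beside 27.1% of all protein-coding genes. In the wild type 3 of the 101 had one (2.97%, 0.617 to 8.44), beside 1.99% of all protein-coding genes. All 47 genes had at least 1 knockout-only hotspot at an end, and the share of all protein-coding genes with one was 25.5%. The shares by family ran from 0 of 2 genes to 65.8%, and no difference between families was tested. The Cep family stood at 25 of 38 genes (65.8%, 48.6 to 80.4) and Bbs at 5 of 8 (62.5%, 24.5 to 91.5). Cfap genes had one in 11 of 34 cases (32.4%, 17.4 to 50.5), Ift genes in 4 of 14 (28.6%, 8.39 to 58.1) and Tubgcp genes in 2 of 5 (40%, 5.27 to 85.3). Neither Tubg gene had one (0 to 84.2%). The interval of the Cep family alone lay above the share of all protein-coding genes, and the intervals of the other families included it. The width of an interval follows the number of genes, 38 in Cep and 8 in Bbs. Genes are not replicates, so this is no test and ranks no family. The intervals of every pair of families overlapped.

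**Figure D1:**
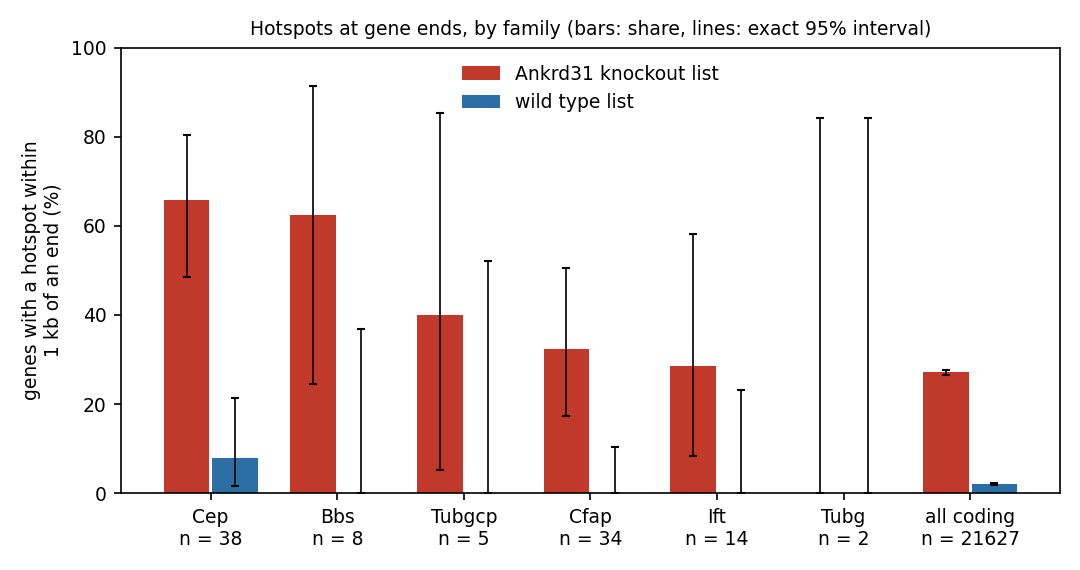
Share of genes (%) with a hotspot within 1 kb of an end in the knockout list (red) and the wild type list (blue), by family and for all protein-coding genes, with exact 95% intervals as lines. Cep and Bbs stand at 65.8% and 62.5% in the knockout, Cfap and Ift at 32.4% and 28.6%, and all protein-coding genes at 27.1%.

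Gene length differs between genes with and without such a hotspot (median 27.8 kb and 14.3 kb over all protein-coding genes), so the 2 largest families were also read within length classes. Among genes of 20 to 60 kb, 12 of 18 Cep genes (66.7%) and 3 of 12 Cfap genes (25%) had a knockout hotspot at an end, beside 34% of all protein-coding genes of that length. Among longer genes the counts were 10 of 14 Cep genes (71.4%) and 6 of 15 Cfap genes (40%), beside 37.2%. Among genes under 20 kb they were 3 of 6 and 2 of 7, beside 20%. The Cep share was the higher of the 2 in each of the 3 classes, with overlapping intervals.

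The shares depend on how deep into the list one reads. The top of the knockout list by strength was also read alone, down to the number of hotspots in the wild type list. Then 17 of 38 Cep genes (44.7%), 7 of 34 Cfap genes (20.6%), 1 of 8 Bbs genes (12.5%) and 1 of 14 Ift genes (7.14%) kept a hotspot at an end. The share of all protein-coding genes was 16%. The Bbs share thus went from above that of all genes (5 of 8) to below it (1 of 8), a change that rests on few genes. The Cep share stayed above it under both readings.

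Of the knockout-only hotspots within 1 kb of an end of a Cep gene, the strongest was at Cep57. This gene encodes a protein of the matrix around the centriole. The hotspot had a strength of 358 (320 to 399) and ran from 13825992 to 13828760 on chromosome 9. Next came Cep95 with 213 (184 to 244) and Cep135, whose product is part of the cartwheel and wall of the centriole, with 209 (181 to 240). Cep112 had 189 (162 to 219) and Cep68, which encodes a linker between centrosomes, 172 (145 to 202). These 5 exceeded 79.5% or more of all knockout-only hotspots at gene ends. Cep43, which encodes a centriolar protein needed for ciliation, had 155, Cep97, whose product caps centrioles together with CCP110, 124. Cep76 (120), Cep192 (115) and Cep85 (114) came after it. The 25 knockout-only hotspots at ends of Cep genes had a median strength of 102, with the lowest at 35 for Cep131, a gene of centriolar satellites. Over all genes, the 4919 knockout-only hotspots at gene ends had a median of 94, so the strengths of the Cep hotspots were ordinary ones.

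Grouped by role after their values had been seen, 8 of 9 genes picked for centriole duplication carried a knockout hotspot at an end: Cep57, Cep63, Cep76, Cep97, Cep135, Cep152, Cep192 and Cep295. The share of all protein-coding genes was 27.1%, and since the group was made after the values were seen its count supports nothing. Genes of the same process with other symbols were mixed, with hotspots at Plk4 (126) and Stil (74) and none at Sass6, Cenpj, Ccp110, Rttn and Poc5. They too were picked after their values were seen, from a list of 34 genes of which 15 had one. Of the 9 Cep genes, the 1 left out by the window was Cep120. Its knockout-only hotspot lay 1034 bp from the end of the gene and had a strength of 673. The distal appendages anchor the mother centriole to the membrane. Of the 3 Cep genes picked for them, Cep83 had one (57), and Cep89 and Cep164 had none. Cep290, whose product links the transition zone to the membrane, had a strength of 98.

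In the Bbs family the hotspots were at Bbs7 (207, 179 to 238), Bbs12 (66), Bbs10 (65), Bbs9 (55) and Bbs2 (47). Apart from that at Bbs7, all lay below the median of knockout-only hotspots at gene ends. Bbs2, Bbs7 and Bbs9 encode a core of the BBSome, and Bbs10 and Bbs12 encode chaperonin-like proteins that help to assemble it. The other BBSome genes with a Bbs symbol, Bbs1, Bbs4 and Bbs5, had no hotspot at an end in either list.

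The 4 Ift genes with one were Ift57 (159, 133 to 188), Ift74 (63), Ift81 (55) and Ift20 (40). All 4 encode subunits of the IFT-B complex, which has 11 genes here and drives transport towards the tip. The 3 IFT-A genes with an Ift symbol, Ift43, Ift122 and Ift140, had none. With so few genes the 2 complexes could not be told apart in this respect.

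The strongest of all was at Cfap47 on X, from 79516321 to 79518517, with a strength of 1005 (943 to 1070). This was above 99.9% of knockout-only hotspots at gene ends on autosomes and X together. No rank among those on X alone is given. Gene ends on X had a knockout hotspot in 47.5% of protein-coding genes, against 26.1% on autosomes. The autosomal Cfap genes were lower, with Cfap43, a gene of the sperm flagellum, at 187 (160 to 217), Cfap299 at 165, Cfap300, which takes part in the assembly of dynein arms, at 162, Cfap206, of the radial spokes, at 160, Cfap20, which encodes a protein of the doublet microtubule, at 120, Cfap298, also of dynein arm assembly, at 101 and Cfap20dc at 83. The lowest was Cfap57 at 48. Cfap46, Cfap54, Cfap74 and Cfap221, which encode parts of the C1d projection of the central pair, had none at an end.

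The gamma-tubulin genes and those of the ring were few. Tubg1 and Tubg2 had no hotspot at an end or inside the gene in either list. Tubgcp2 (66, 50.2 to 84.8) and Tubgcp5 (61, 46 to 79), which encode ring subunits, each had 1 weak knockout-only hotspot at an end, while Tubgcp3, Tubgcp4 and Tubgcp6 had none.

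**Figure D2:**
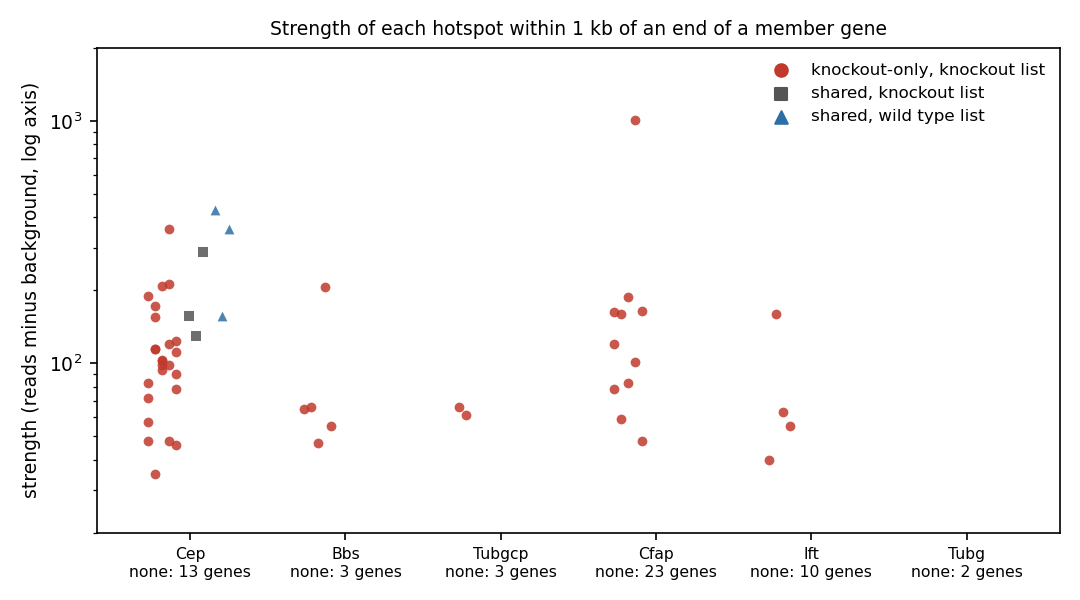
Strength (reads minus background, log axis) of every hotspot within 1 kb of an end of a member gene, by family. Knockout-only hotspots (red circles) run from 35 to 1005, and the 3 shared hotspots (grey squares for the knockout, blue triangles for the wild type) all belong to Cep genes.

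The knockout-only hotspots sat at the start of the gene. The strand of 83 of the 101 genes could be taken from the RefSeq promoter table, and 41 of them carried knockout-only hotspots at an end: in all 41 these were at the start side, and the far end had 0. Over the 17273 protein-coding genes with an entry, 4376 had a knockout-only hotspot at the start side and 220 at the far end. The centre lay within 250 bp of a listed start for 40 of the 44 member hotspots at starts (90.9%), beside 77.9% over all genes, at a median distance of 106 bp and 127 bp. The farthest were those of Cep97, 684 bp after the start, and Cep95, 631 bp before it, where an end of the helicase gene Ddx5 is also within 1 kb.

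The 3 wild type hotspots at member ends were at the other end of their genes. The hotspot at Cep57 had a wild type strength of 428 (388 to 471) and a knockout strength of 156 (131 to 184), and lay 104 bp from the far end in the knockout list. Cep95 had 359 and 287, and Cep85, whose product restrains the kinase NEK2, had 156 and 130. On strength relative to the median autosomal shared hotspot of each list (182 and 151), the knockout was lower at Cep57 (log2 ratio -1.19, -1.46 to -0.91), while the values at Cep95 (-0.05, -0.28 to 0.18) and Cep85 (0.01, -0.35 to 0.36) were not separated by counting error. The same 3 genes thus carried a hotspot of both lists at the far end and a knockout-only hotspot at the start. Over all genes with an entry, shared hotspots of the wild type list lay at the start side of 116 genes and at the far end of 160.

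**Figure D3:**
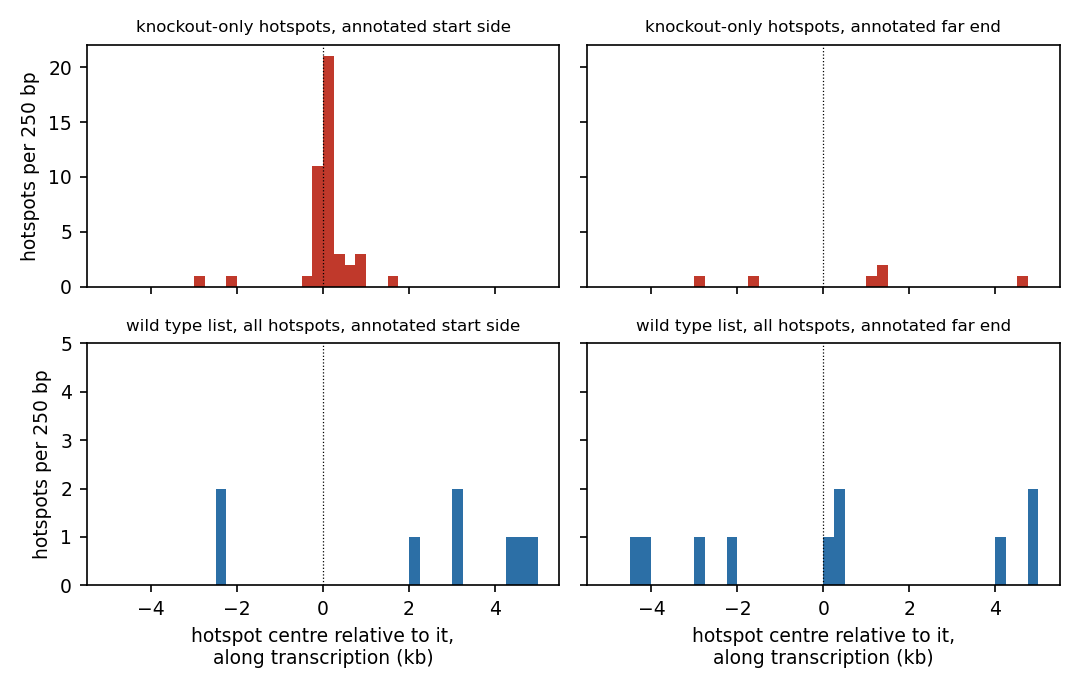
Hotspot centres (count per 250 bp) around the start side and the far end of the 83 member genes of known strand, in kb along transcription, for knockout-only hotspots (red) and all wild type hotspots (blue). Knockout-only hotspots pile up at the start side, where 41 genes have one, and within 1 kb of the far end only the 3 wild type hotspots of Cep57, Cep85 and Cep95 appear.

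Some starts lie inside the annotated gene and escape a rule based on gene ends. Counted at the listed starts, 44 of 83 genes had a knockout-only hotspot within 1 kb (53%, 41.7 to 64.1), beside 27.8% of all protein-coding genes with an entry. The genes gained were Cep41, Cep70 and Cfap99. The hotspot of Cep41, which encodes a protein of tubulin glutamylation in cilia, had a strength of 60 and lay 50 bp from the start, and that of Cep70 had 156 and lay 82 bp from it. Ift74, with 63 at the end of the gene, had a stronger one of 110 at 46 bp from a start inside it. For wild type hotspots the same count was 1 of 83, beside 0.903% of all genes: a shared hotspot 975 bp from the start of Cfap161 (448 in the wild type, 254 in the knockout). By family, 24 of 32 Cep genes (75%, 56.6 to 88.5), 5 of 8 Bbs genes, 11 of 27 Cfap genes (40.7%, 22.4 to 61.2) and 3 of 11 Ift genes (27.3%, 6.02 to 61) had a knockout-only hotspot at a listed start.

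Promoters with a knockout-only hotspot were richer in CpG. In the 300 bases around the listed start nearest to the gene end, the ratio of observed to expected CpG had a median of 0.866 in the 44 member promoters with one and 0.689 in the 39 without, beside 0.811 and 0.392 over all protein-coding genes. Where this ratio was 0.7 or more, 36 of 53 member promoters (67.9%) had a knockout-only hotspot, beside 47.5% of all promoters of that class. Between 0.4 and 0.7 it was 8 of 28 (28.6%) beside 30%. Member promoters under 0.4 numbered 2, with 0 hotspots. Within the upper class the counts by family were 20 of 23 Cep promoters (87%), 5 of 5 Bbs, 7 of 14 Cfap (50%), 3 of 7 Ift (42.9%) and 1 of 4 Tubgcp (25%), with no test between these small groups. Ift140 and Ift172 had ratios of 1.21 and 1.12 and no hotspot at the start, while Cfap300, at 0.403, had one of 162.

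**Figure D4:**
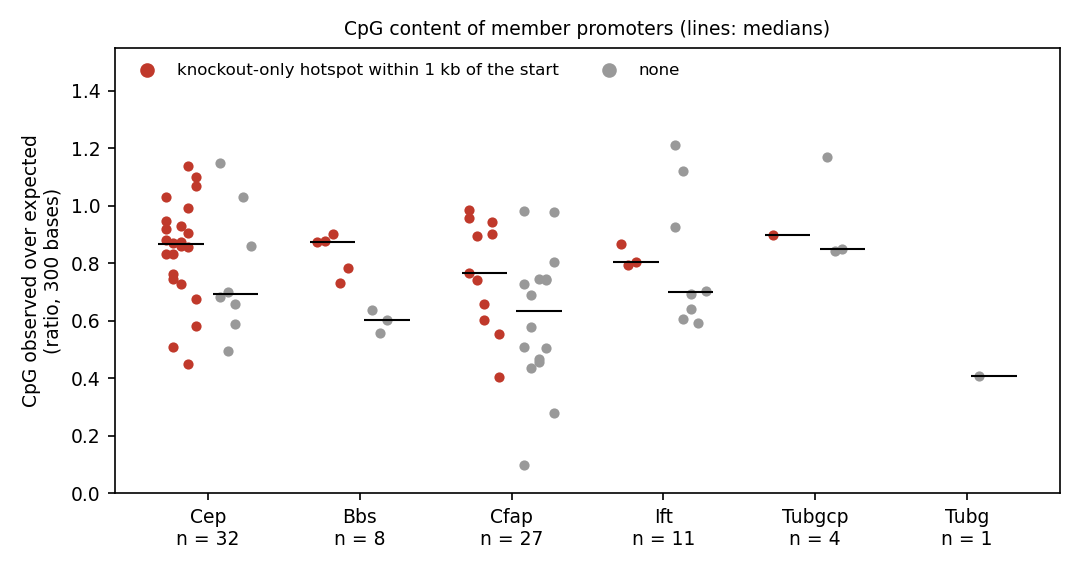
Ratio of observed to expected CpG in the 300 bases around the start of 83 member genes, split by a knockout-only hotspot within 1 kb of the start (red) or none (grey), with medians as lines. The median is 0.867 against 0.692 in Cep and 0.765 against 0.634 in Cfap, and the points of the groups overlap.

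Short motifs were counted in the same 300 bases on both strands. The letters GTTGCC, part of the site of the RFX factors that regulate ciliary genes, were present in 27 of 83 member promoters (32.5%), beside 12.3% of all protein-coding promoters. Followed by NNG (GTTGCCNNG, a subset of the first) they were in 22.9%, beside 5.21%. GTTGCC was in 10 of the 44 member promoters with a knockout-only hotspot (22.7%) and in 17 of the 39 without (43.6%), while over all genes the shares were 12.9% and 12.1%. The longer GTTGCCNNG was in 8 of the 44 (18.2%) and 11 of the 39 (28.2%), beside 6.11% and 4.88%. GTTGCC was present in 11 of 27 Cfap, 5 of 11 Ift, 3 of 8 Bbs and 8 of 32 Cep promoters. The GC box letters GGGCGG went the other way, in 32 of 44 (72.7%) and 19 of 39 (48.7%), beside 74.9% and 36.6% over all genes. In Cep promoters their share was 75% with and without a hotspot (18 of 24 and 6 of 8). In the Cfap, Ift, Bbs and Tubgcp families it was higher with one. The CCAAT letters ATTGG were in 22 of 44 and 15 of 39, beside 40.9% and 39.1%. The cAMP response element letters TGACGTCA were in the promoters of Cep57 and Ift57 alone (2.41%, beside 2.36%). A match of letters is not a binding site, and its absence from this window says nothing of the factor.

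Inside gene bodies, more than 1 kb from both ends, the numbers in the 2 lists were close. The members held 63 knockout hotspots, 0.91 per 100 kb (0.699 to 1.16), and 61 wild type hotspots, 0.881 per 100 kb (0.674 to 1.13). All protein-coding genes had 0.789 and 0.667 per 100 kb. At least 1 was found in 39 genes (38.6%) in the knockout and 36 (35.6%) in the wild type, beside 21.3% and 18.9% of all protein-coding genes, which are mostly shorter. Of the hotspots inside members, 50 were shared, 13 knockout-only and 11 wild-type-only. Cep bodies had 0.995 per 100 kb in the knockout and 1.07 in the wild type, Ift bodies 1.31 in both, Bbs bodies 0.905 in both and Cfap bodies 0.783 and 0.641, and all these intervals overlapped. Tubg and Tubgcp bodies had 0 in either list.

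The genes with the most were Cep112, with 5 knockout and 8 wild type hotspots over 435401 bp, and Cfap299, with 5 and 6 over 472916 bp. Cep128, Bbs9 and Ift80, which encodes an IFT-B subunit, had 3 in each list. Of the 13 knockout-only hotspots in bodies the strongest was that of Cep120, just beyond the window, and 4 others lay within 101 bp of a listed start: those of Cep41, Cep70, Ift74 and, in Cfap99, that of the overlapping gene Zfyve28. The strongest wild-type-only hotspot lay in Cfap74, with a strength of 413 and no partner in the knockout list.

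Shared hotspots in member bodies mostly had a lower relative strength in the knockout, as did those of all gene bodies. Of 50, 36 had a negative log2 ratio, and the median was -0.57, beside 3361 of 5399 and -0.32 over the shared hotspots in all gene bodies. The number over 2-fold lower was 13 (26%), beside 25.3%, and over 2-fold higher 2 (4%), beside 7.35%. As deposited, with no division by the list medians, the median was -0.84. Of the 18 with a wild type strength of 300 or more, all 18 were lower (median -0.93, beside -0.90 and 1806 of 2110 in all genes), of the 18 from 150 to 300, 10 were lower (median -0.18, beside -0.41 and 855 of 1282), and of the 14 under 150, 8 were lower (median -0.15, beside 0.32 and 700 of 2007). By these medians, members were less reduced than all gene bodies in the middle class. In the lowest class the 14 member hotspots had a median slightly under 0, whereas that of all gene bodies was above 0. The classes were made with the wild type strength, which is 1 of the 2 values in the ratio.

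The lowest ratio was at a hotspot of Cep112, with strengths of 498 (wild type) and 78 (knockout) (log2 ratio -2.41, -2.77 to -2.04, or 5.3-fold lower). Another hotspot of the same gene, with 173 and 158, had 0.14 (-0.18 to 0.46), so hotspots of 1 gene did not move together. Cep41 had 855 and 150 (-2.24, -2.51 to -1.98), Ift80 had 802 and 170 (-1.97, -2.22 to -1.72) and Cfap20dc 205 and 52 (-1.71, -2.19 to -1.23). The strongest wild type hotspots in member bodies were in Bbs9, with 1762 and 487 (-1.59, -1.73 to -1.44), and Ift172, another IFT-B gene, with 1674 and 503 (-1.47, -1.61 to -1.32).

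The highest ratios were smaller in size. Cfap57 had a wild type strength of 54 and 107 in the knockout (1.26, 0.76 to 1.76) and Cfap65 had 126 and 236 (1.17, 0.85 to 1.50). A second hotspot of Bbs9 had 126 and 196 (0.91, 0.57 to 1.25), Cfap47 on X had 175 and 272 (0.91, 0.62 to 1.19) and Cep55, a gene of the final step of cell division, 43 and 64 (0.84, 0.22 to 1.47). The family medians were -0.83 in Cep, -0.65 in Ift, -0.34 in Cfap and -0.24 in Bbs, over 22, 9, 14 and 5 hotspots.

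**Figure D5:**
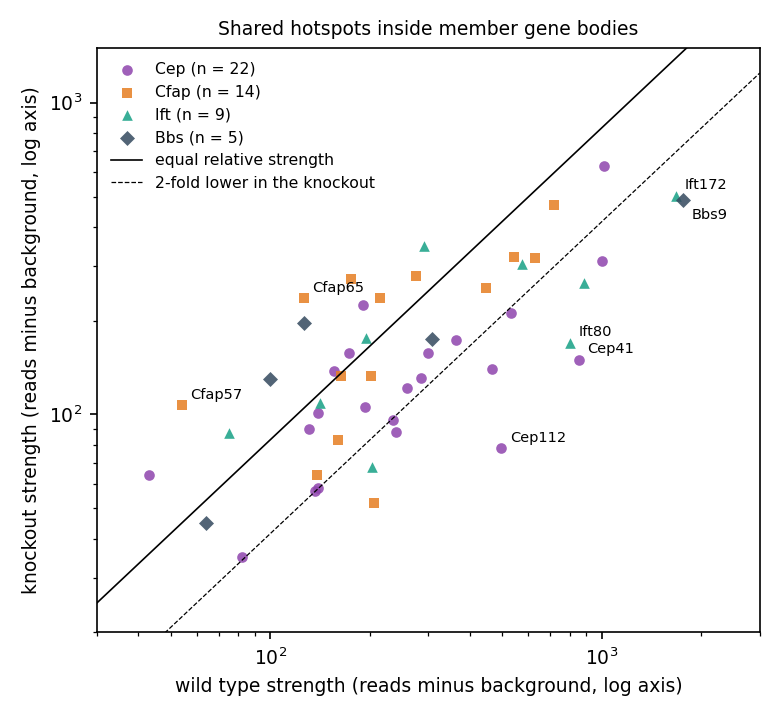
Wild type against knockout strength (reads minus background, log axes) of the 50 shared hotspots inside member gene bodies, coloured by family. The solid line marks equal relative strength and the dashed line a 2-fold lower value in the knockout, below which 13 hotspots lie.

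Other centrosome and cilium genes, in 5 lists, had shares from 20.9% to 45.5%. Of 34 genes of the centriole and its matrix 15 had a knockout hotspot at an end (44.1%, 27.2 to 62.1), of 22 transition zone genes 10 (45.5%, 24.4 to 67.8), of 27 ciliary transport genes with other symbols 12 (44.4%, 25.5 to 64.7) and of 17 regulators of multiciliation and RFX factors 7 (41.2%, 18.4 to 67.1). Of 43 genes of the motile axoneme, which encode dynein arms, radial spokes, tektins and other proteins, 9 had one (20.9%, 10 to 36). The share of all protein-coding genes, 27.1%, lay inside the interval of every list but the first, which began at 27.2%. The strongest were at Haus7 (462) and Cetn2 (434) on X, both shared with the wild type list (60 at each), the IFT-A gene Ttc21b (456) and the BBSome gene Bbip1 (342). Rfx2, which encodes a factor of spermatid ciliogenesis, had 171. Wild type hotspots at an end were found in 3, 1, 1, 0 and 1 genes of these lists, in the order given.

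The values nearest the 1 kb window were as follows. Just inside lay Bbs2, 976 bp from the gene end (47), Cep20, 814 bp (103), and Cep78, 756 bp (111). Just outside lay Cep120, 1034 bp (673), a second hotspot of Bbs7, 1151 bp (90), and a second one of Cfap206, 1388 bp (109).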

How the data were processed

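Per the submitters' processing notes the tools CASAVA, Bowtie2, BWA and MACS2 and the build mm10 were used, with no version or role given, and the list names say that chromosome Y was left out. How the authors combined the 2 samples of a genotype is not stated. For every hotspot the authors deposited a raw read count, an estimated background, a strength (a signal, equal to count less background in 100% of cases), this strength as percent of the list's total, and a rank by strength (a score). Median read counts were 163 (wild type) and 116 (knockout). The 8 H3K4me3 and input samples were not analysed here.

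Gene ends came from RefSeq (GRCm38.p6), starts and strands from its promoter table (83 members matched, 18 did not). Counts were made in Python 3.11.15 with exact (Clopper-Pearson) 95% intervals for shares and Poisson intervals for reads (SciPy 1.17.1). The code was tested on simulated hotspots. The members, lists and rules were chosen with earlier results of these data known, so no test was run. Named genes were the 8 strongest at ends in each family, all X, Tubg and Tubgcp members, those whose end had a hotspot in the wild type list, the 5 with most body hotspots, the 5 highest and lowest ratios, and the 3 hotspots nearest the window edge on each side. Genes named beyond it were chosen after their values were seen. In the other lists, Azi1 and Rabl5 are older symbols of Cep131 and Ift22, and Rsph10b did not match.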

Additional observations from a re-analysis of the deposited data

How the results depend on the processing

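Of 47 alternatives, 39 left the result within the interval or within 1.5 times its main value, and none reversed the median log2 ratio. Some of the 39 could not have moved, such as autosomes only in families without an X member. The tally holds no family share for the cut knockout list or for a strength of 100 or more. With the cut list Cep (44.7%), Bbs (12.5%), Ift (7.14%) and Tubgcp (0%) lay below their main intervals, and Cfap (20.6%) inside its own. All protein-coding genes then stood at 16%. The number of the 101 members with a knockout hotspot at an end, 47, was 42 with a window of 500 bp, beside 23.6% of all protein-coding genes. With 2 kb it was 52, beside 30.5%. It was 35 without hotspots within 1 kb of another protein-coding gene, with no share over all genes given for that setting. Among hotspots with a strength of 100 or more it was 22, beside 13.1%. With the knockout list cut to the size of the wild type list it was 26, beside 16%. The number with a knockout-only one was then also 26. The cut and the minimum strength both leave fewer hotspots. The number with a wild type hotspot was 1 without hotspots close to another protein-coding gene, since those at Cep85 and Cep95 lie close to Sh3bgrl3 and Smurf2. Knockout hotspots in bodies numbered 98 with any centre between the gene ends, which takes in those at the ends, and 39 at a strength of 100 or more. In an alternative chosen after seeing the data, members with a knockout-only hotspot at a listed start numbered 25 with the cut list and 21 at a strength of 100 or more. No share over all genes is given for these settings, so the counts at starts cannot be set against one. No paired analysis was possible because each genotype has 1 list and the columns carry no replicate, and for the same reason no replicate could be left out. Depth sets which weak hotspots are listed: the weakest strength was 18 (wild type) and 16 (knockout), and a missing hotspot may lie below calling.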

Other observations

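Several knockout-only hotspots at member ends lay between neighbouring genes. Of 47, 13 (27.7%) were also within 1 kb of an end of another protein-coding gene, beside 13.2% of the 4919 over all genes. These 2 shares are not alike. A hotspot near several genes has more chances to fall at a member, but counts once among the 4919, so no excess in members can be read from them. For such a hotspot the gene it belongs to cannot be told apart. The neighbours of 2 are themselves genes of the centrosome: Cetn4, which encodes a centrin, beside Bbs12 (66), and Sdccag8 beside Cep170 (83). The others were Fam76b beside Cep57, Ddx5 beside Cep95, Tmtc3 beside Cep290, Psmg2 beside Cep76, Steap2 beside Cfap69, Anapc13 beside Cep63, Zfp511 beside Tubgcp2, Plaa beside Ift74, Ebna1bp2 beside Cfap57, Sesn1 beside Cep57l1 and Tnfaip1 beside Ift20.

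The distance from a knockout-only hotspot at a member end to the nearest wild type hotspot had a median of 53.9 kb (4.33 to 258 kb). This was close to the 53.8 kb over all knockout-only hotspots at gene ends, so it is no feature of these genes.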
